A study of Mus musculus with 2 samples.

Results

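Mir126a, Mir143 and Mir145a are 3 microRNA genes tied to the vessel wall, and they were followed here in hippocampus of the mouse. They were chosen by gene identity, though with earlier results of these data known, and are 3 of the 2202 microRNA genes counted in the files. The series holds 2 microRNA-seq libraries from hippocampus of male B6CASTF1/J mice aged 36 days, the F1 cross of C57BL/6J with CAST/EiJ, with no treatment, transgene or second condition in the labels. The libraries are labelled biological replicates 1 and 2. Each has a tissue sample of its own, while the donor label is the same for both, and nothing says whether the tissue came from separate animals. With 1 library on each side, a p-value between them covers counting error only, unless variation is added to the test by a set amount. It does not measure the spread between animals, and a difference between the libraries may be technical.

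A microRNA is cut from a hairpin in a longer transcript, and the mature strand guides Argonaute proteins to messenger RNAs through its seed. miR-126 is the best known microRNA of endothelial cells, which line blood vessels. It is made from the transcript of Egfl7, a gene for a protein that endothelial cells secrete, and it sustains their response to vascular growth factors. miR-143 and miR-145 come from 1 primary transcript in smooth muscle cells and pericytes, the mural cells that wrap vessels, and they help to hold smooth muscle in its contractile state. In the hippocampus both cell types belong to the vessels that run among neurons and glia. A bulk level cannot tell fewer cells of a type apart from less of the RNA in each cell.

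The sequences of the Mir126a locus are shown because they determine what a count at this locus means. In the hairpin the capitals mark the mature arm miR-126a-3p, which occupies positions 46 to 67 of 73, and in the mature arms they mark the seed, bases 2 to 8. All are given 5′ to 3′, from RefSeq on GRCm38.p6, the assembly also called mm10.
Mir126a hairpin, chr2:26591357-26591429, plus strand: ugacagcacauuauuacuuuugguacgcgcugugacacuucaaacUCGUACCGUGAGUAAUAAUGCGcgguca
miR-126a-3p, plus strand: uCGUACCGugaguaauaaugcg
miR-126b-5p, minus strand: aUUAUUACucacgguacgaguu
miR-126b-3p, minus strand: cGCGUACCaaaaguaauaaugug
The last 2 arms belong to Mir126b, an annotated hairpin of 58 bases on the opposite strand. Mir126b is the exact reverse complement of positions 7 to 64 of the Mir126a hairpin. miR-126b-5p faces miR-126a-3p over 19 bases, so the strand of a read decides which gene it belongs to. None of the 1738 mature arms in the RefSeq table other than miR-126a-3p itself carries its seed. Of the 3 genes, 1 matched that table, Mir126a, with its hairpin and this arm. The table holds no entry for the other arm, miR-126a-5p, which is therefore not marked. Counts of Mir126a are of the whole gene and do not separate its arms.

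Reads at this locus came from 1 strand. Mir126a (ENSMUSG00000065540.1) had 42849 counts on its own strand in replicate 1 and 200301 in replicate 2. Mir126b (ENSMUSG00000105799.1) had 0 counts in both libraries, and 0 allows up to 3 counts, or 0.681 CPM (counts per 1000000 counts in microRNA genes) in replicate 1 and 0.568 CPM in replicate 2. Against that floor in each library Mir126a was at least 14283-fold higher than Mir126b in replicate 1 and at least 66767-fold higher in replicate 2. Floors and intervals here cover counting error only, since reads amplified by PCR without molecular identifiers are not independent molecules.

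The files hold 3 count columns, for either strand, the strand of the gene and the opposite strand. In the either-strand column Mir126a kept 1 count in replicate 1 and 3 in replicate 2, because reads that overlap both Mir126a and Mir126b are set aside there as ambiguous. The set-aside reads, 42848 and 200298, equal the reads counted opposite to Mir126b. They made up 14.5% of the 295823 ambiguous reads of replicate 1 and 39.9% of the 502531 of replicate 2. The 1 read and the 3 reads that remained are too few for a level, so Mir126a is described from the counts on its own strand. No opposite-strand read was counted for Mir126a, Mir143 or Mir145a in either library.

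**Figure D1:**
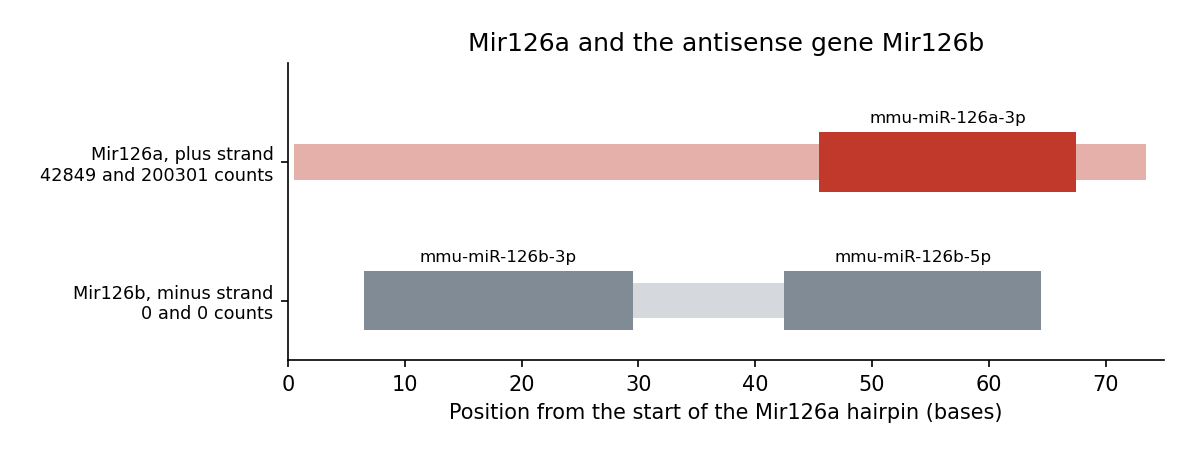
Map of the Mir126a hairpin (top) and the Mir126b hairpin (bottom), drawn by position in bases from the start of Mir126a. Thick boxes are the mature arms found in the RefSeq table, which lacks miR-126a-5p. The own-strand counts of replicates 1 and 2 are at the left. Mir126b lies within positions 7 to 64 of Mir126a, and all own-strand counts fell to Mir126a.

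On the annotation the 3 genes sit in different settings. Mir126a lies on the plus strand of chromosome 2 inside Egfl7 (26580014 to 26593120, mm10), where an exon of 1 of the 19 annotated Egfl7 transcripts covers it and the other transcripts do not. It also lies in an intron of Gm20532, a gene model on the same strand. Mir143 (ENSMUSG00000065445.3) lies on the minus strand of chromosome 18 at 61649196 to 61649258, and Mir145a (ENSMUSG00000065592.2) on the same strand at 61647825 to 61647894. A gap of 1301 bases separates them, and neither overlaps another annotated gene. The nearest gene to Mir143 is Carmn, a long non-coding RNA on the same strand, 366 bases away. Mir145a has Bvht, a long non-coding RNA on the opposite strand, as its nearest neighbour at 352 bases.

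Sequence sharing, which costs reads because those that match several places enter no gene, was low for the 3 genes among annotated transcripts. The hairpins are 73, 63 and 70 bases long for Mir126a, Mir143 and Mir145a, with 45.2%, 55.6% and 48.6% G or C. The longest stretch shared with a microRNA hairpin elsewhere was 12 bases for Mir126a, 11 for Mir143 and 17 for Mir145a, the last with Mir145b. No other annotated transcript held a 20-base match to Mir143 or Mir145a, and for Mir126a these were the overlapping Egfl7 and Mir126b. Copies outside annotated transcripts were not searched.

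Mir126a was among the microRNA genes with the most counts, and its 2 libraries were far apart. Its level was 9729 CPM in replicate 1 and 37937 CPM in replicate 2, a mean of 23833 ± 19946 CPM (SD, n = 2). It was thus low in replicate 1 and high in replicate 2, with an SD of 83.7% of the mean. The gene ranked 21st of 2202 in replicate 1, 7th in replicate 2 and 9th by the mean. Reads that match several places, 40.3% of all reads in replicate 1 and 46.5% in replicate 2, enter no gene. Genes that share sequence with others may therefore rank too low, and the ranks here are by counts only. Of all counts in microRNA genes it took 0.973% in replicate 1, with a 95% Wilson interval from 0.964 to 0.982. The share in replicate 2 was 3.79%, with an interval from 3.777 to 3.810.

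Mir143 was lower than Mir126a in both libraries and its own libraries lay close together. It had 27794 counts in replicate 1 and 29873 in replicate 2, or 6311 and 5658 CPM, a mean of 5984 ± 462 CPM. Its SD was 7.72% of the mean, and it ranked 31st in replicate 1 and 40th in replicate 2. Its share of the counts was 0.631% (Wilson interval 0.624 to 0.639) in the first library and 0.566% (0.559 to 0.572) in the other.

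Mir145a, known as the partner of Mir143 in 1 primary transcript, was lower than both in each library. It had 922 counts in replicate 1 and 1270 in replicate 2, or 209 and 241 CPM, a mean of 225 ± 22.0 CPM. Both libraries again lay close, with an SD of 9.80% of the mean and ranks of 166 and 163. Of all 2202 microRNA genes 92.6% had a lower mean than Mir145a, against 98.3% for Mir143 and 99.6% for Mir126a. Most of the 2202 had no count: 687 genes had 1 or more in replicate 1 and 723 in replicate 2. Among the 778 genes with a count in either library, Mir145a ranked 164th by the mean. Mir145b, a separate gene with a related name, had 2 counts in each library, under the floor of 3.

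The order Mir126a, Mir143, Mir145a held in both libraries. The gap between the means of Mir143 and Mir145a, 5759.5 CPM, exceeded the sum of their SDs, 484 CPM. The gap between Mir126a and Mir143, 17849 CPM, was smaller than the sum of their SDs, 20407 CPM, so their means do not differ beyond the spread of the libraries. An exact two-sided sign-flip test over 2 libraries cannot give a p under 0.5, so no level was tested against another. Together the 3 genes took 1.62% of the counts in replicate 1 and 4.38% in replicate 2. Mir126a gave 59.9% of that sum in replicate 1 and 86.5% in replicate 2, Mir143 38.8% and 12.9%, and Mir145a 1.29% and 0.549%.

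Ratios of counts within a library do not depend on its depth or scaling. They need not be ratios of molecules, as the capture of each sequence by the library preparation was not measured. Mir126a had 1.54 times the counts of Mir143 in replicate 1 (95% exact binomial interval 1.52 to 1.57) and 6.71 times in replicate 2 (6.62 to 6.79). Against Mir145a it had 46.5 times (43.5 to 49.7) and 158 times (149 to 167). Mir143 had 30.1 times the counts of Mir145a in replicate 1 (28.2 to 32.2) and 23.5 times in replicate 2 (22.2 to 24.9). Mir143 and Mir145a were thus far from equal in counts, although they are known to come from 1 primary transcript, which was not measured here.

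Per base of annotated hairpin the ratios, as geometric means of the libraries, were 2.77 for Mir126a to Mir143, 82.1 for Mir126a to Mir145a and 29.6 for Mir143 to Mir145a. By counts they were 3.22, 85.6 and 26.6. Reads of mature arms need not grow in number with hairpin length, so the division is an alternative scale and not a correction. The change between the libraries was tested with two-sided Fisher's exact test on the counts, adjusted over the 3 pairs. The ratio of Mir143 to Mir145a was lower in replicate 2, at 0.780 times that of replicate 1 (adjusted p = 1.64e-08 in the exact test). The ratio of Mir126a to Mir145a was 3.39 times higher (adjusted p = 1.23e-154, exact test). That of Mir126a to Mir143 was 4.35 times higher, with a p too small for the calculation to represent. These tests cover counting error only, not the spread between animals.

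**Figure D2:**
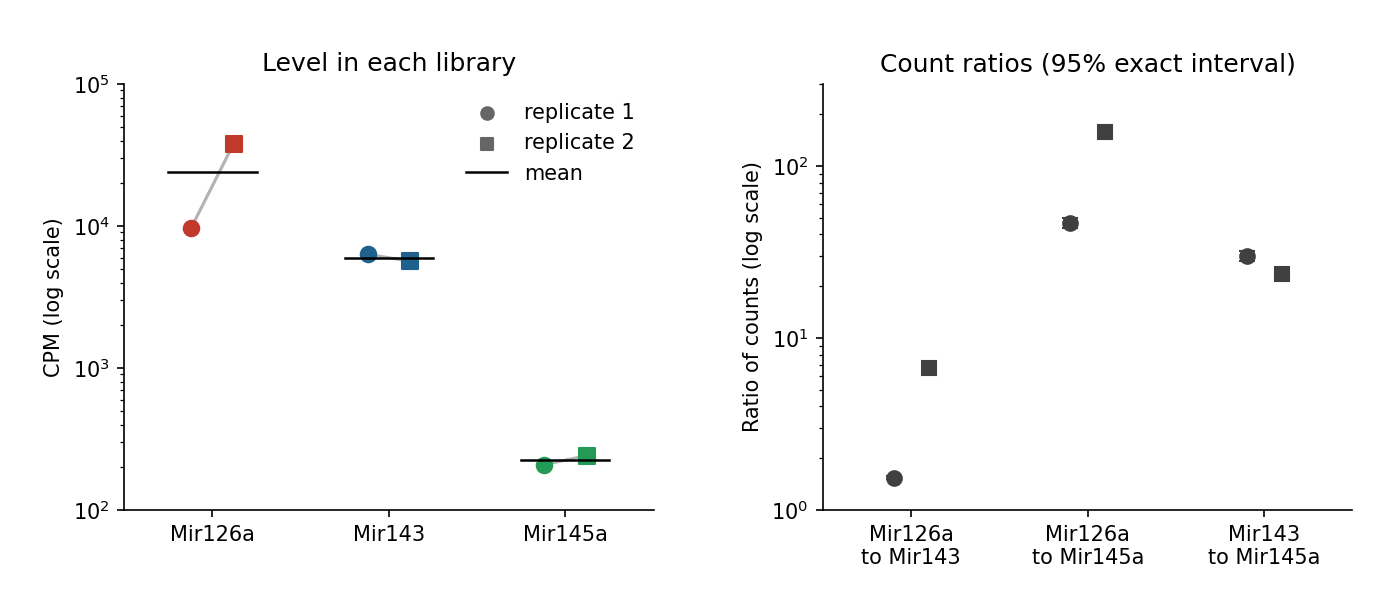
Left, CPM of Mir126a, Mir143 and Mir145a on a log axis, with replicate 1 as circles, replicate 2 as squares and the mean as a line. Right, ratios of counts on a log axis with 95% exact intervals, mostly smaller than the symbols, where both ratios with Mir126a are higher in replicate 2 and that of Mir143 to Mir145a is lower.

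The libraries were then compared gene by gene, with replicate 2 over replicate 1 as the ratio, scaled by TMM (a trimmed-mean scaling of library sizes) with 1 CPM added. The test covered 504 genes, each with at least 10 counts over both libraries. With 0.05 as the limit on adjusted p-values from the exact binomial test, 55.8% of them were called, 32.5% higher and 23.2% lower in replicate 2. Scaled and tested on the 313 genes with at least 100 counts alone, 122 were higher and 130 lower. That setting changed both the genes tested and the scaling, which by itself lowered each log2 ratio by 0.13, and the part of each in the new split was not tested. All 3 genes were among those called, so a call by itself sets none of them apart from that background. What differed was the size.

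Mir126a was 3.85 times higher in replicate 2 (95% exact interval of the ratio 3.81 to 3.89), a log2 ratio of 1.95. Among the 199 tested genes with 1000 or more counts, where the median absolute log2 ratio was 0.47, it had the 11th largest in size. At or above its log2 ratio lay 10 other genes of the 199. Mir143 was 0.886 times as high in replicate 2 (0.871 to 0.900), a log2 ratio of -0.17 (edgeR TMM scaling, exact binomial test, adjusted p = 3.90e-47). Mir145a was 1.13 times as high (1.04 to 1.24), a log2 ratio of 0.18 (adjusted p = 0.00716, exact binomial test). Those 2 ranked 163rd and 162nd of the 199 by size, far down that order. Mir143 was thus slightly lower and Mir145a slightly higher in replicate 2, both by less than the median gene differed. The call of Mir145a was lost with DESeq2 size factors (exact binomial test, adjusted p = 0.0652) and with the 100-count minimum (adjusted p = 0.477).

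The calls depended on how much variation between libraries the test allowed. With an added coefficient of variation of 0.1 per library, the call of Mir126a held in the exact beta-binomial test (adjusted p = 1.05e-17), and those of Mir143 (adjusted p = 0.593) and Mir145a (adjusted p = 0.597) did not. With 0.3 the call of Mir126a was lost too (adjusted p = 0.0840). The variation that edgeR estimated between these libraries was 0.425. Reads that match several places made up 40.3% of all reads in replicate 1 and 46.5% in replicate 2, and unmapped reads 20.2% and 13.7%. Their part in the differences was not tested.

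**Figure D3:**
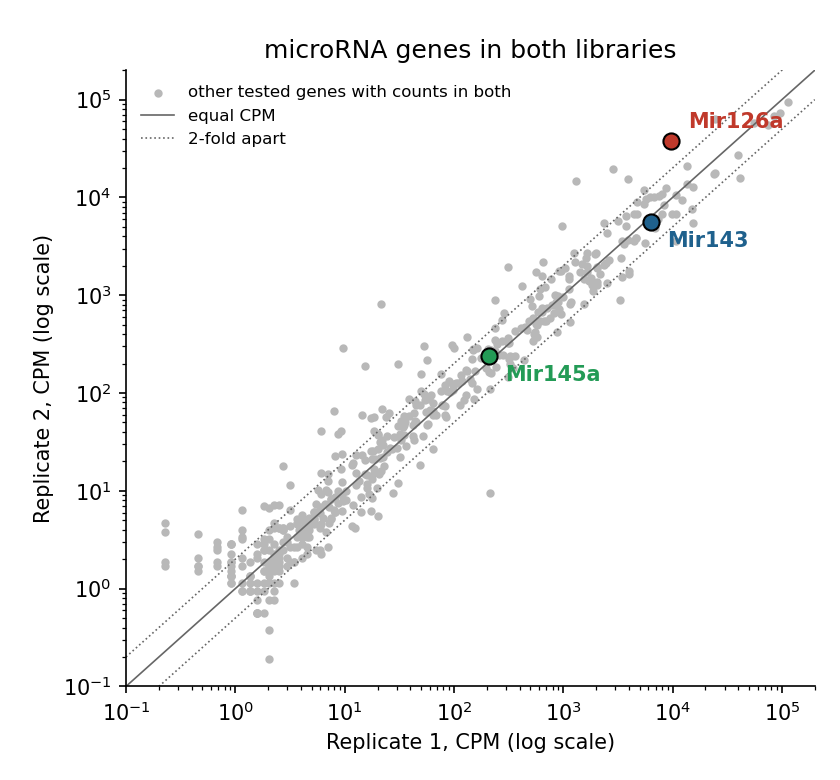
CPM of each tested microRNA gene with counts in both libraries, replicate 1 on the x axis and replicate 2 on the y axis, both on log scales, with a solid line at equal CPM and dotted lines 2-fold apart. Mir126a (9729 and 37937 CPM) lies above the upper dotted line, while Mir143 and Mir145a lie near the solid line.

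The genes nearest to each of the 3 in mean level were set beside it. Directly above Mir126a stood Mir99a, Mir744 and Mirlet7d, and directly below it Mirlet7e, Mir132 and Mir23b. In replicate 1 Mir126a was below all 6, and in replicate 2 it was above all of them except Mir99a, at 62783 CPM. Mir143 had Mir92b, Mir379 and Mir98 above it and Mir541, Mir23a and Mir149 below. Mir145a had Mir218-2, Mir488 and Mir3475 above it and Mir299a, Mir186 and Mir412 below. Mir23b, Mir23a and Mir218-2 each share 20 bases with 1 other microRNA gene, so their counts are uncertain. These 18 neighbours were picked for nearness in mean, so small gaps were favoured by the choice. None differed from its gene by more than the sum of the SDs, and 4 kept the same order in both libraries.

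Likeness of pattern can be measured over 2 libraries only, as the distance between log2 ratios among the 199 genes. Nearest to Mir126a were Mir16-2 (1.94), Mir22 (1.96), Mir16-1 (1.89), Mir129-2 (1.75) and Mir153 (1.68). Mir22 had 17368 counts in replicate 1 and 81827 in replicate 2. Mir16-2 was far lower, at 247 and 1162. Mir16-1, Mir16-2 and Mir129-2 each share 20 bases with another microRNA gene, so their counts are uncertain. Nearest to Mir143 were Mir101b, Mir350, Mir3099, Mir664 and Mir598, with log2 ratios from -0.22 to -0.15. Nearest to Mir145a were Mir146, Mir30b, Mir375, Mir505 and Mir666, from 0.16 to 0.20. Mir101b and Mir146 also share 20 bases with another gene.

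Other microRNAs known from endothelial cells differed between the libraries in both directions. The endothelial list holds 15 genes, most of which other cell types express as well. Of its 14 tested genes 6 were higher in replicate 2, 5 were lower and 3 did not pass, beside 32.5% higher and 23.2% lower over all 504 tested genes. Their median log2 ratio was 0.06, beside 0.05 over all tested genes, and -0.07 beside -0.01 with the 100-count minimum. Mir221, which restrains endothelial migration, was lower: its counts went from 47783 in replicate 1 to 19107 in replicate 2 (log2 ratio -1.60). Its cluster partner Mir222 was lower as well, with 14582 and 4672 counts (-1.92). Mir23a, with a mean of 5738 ± 1394 CPM, was 1.40 times as high in replicate 2, and it shares 20 bases with 1 other gene, so its count is uncertain. Without Mir126a, 5 of 13 tested genes were higher and 5 lower, with a median log2 ratio of -0.04. The remaining genes then summed to 21716 CPM in replicate 1 and 14119 CPM in replicate 2. Of these sums Mir221 made up 10849.8 and 3619 CPM and Mir222 made up 3311 and 885 CPM, a fall larger than that of the whole sum, so the sum does not give the direction of the other genes.

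In the list for smooth muscle and pericytes, Mir143 held most of the counts. That list summed to 9082 CPM in replicate 1 and 7306 CPM in replicate 2, and 4 of its 11 genes reached 10 counts in total. Of these 4, Mir145a and Mir214 were higher and Mir143 and Mir21a lower in replicate 2 (over all tested genes 32.5% were higher and 23.2% lower), and their median log2 ratio was 0.00, or -0.13 with the 100-count minimum. Mir21a, which many cell types express, had 11084 and 6988 counts. Mir133a-1, Mir133a-2 and Mir1a-1, typical of striated muscle and of some smooth muscle, had 0 counts in both libraries. Each of these 3 shares 20 bases with 2 other genes, so reads of theirs may be outside the counts.

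Markers of blood, which fills vessels, and of other cells of the tissue also moved between the libraries. The counts of calls in these lists stand beside 32.5% higher and 23.2% lower over all tested genes, and their medians beside 0.05. Over 3 genes of red blood cells the summed level was 66.8 CPM in replicate 1 and 113 CPM in replicate 2. Mir144 had 38 and 201 counts and Mir451a 155 and 304, both higher in replicate 2, while Mir486 had 101 and 94 and did not pass the test, except as lower with the 100-count minimum. In the leukocyte and microglia list 5 of 7 tested genes were higher and 2 lower, with a median log2 ratio of 0.25. With the 100-count minimum 3 of 5 were higher and 1 lower. The list summed to 4072 and 6177 CPM, of which Mir342 alone made up 2507 and 4319 CPM. Its 3 highest genes were Mir342, Mir150 and Mir146. Mir142 stood at 54.0 CPM in replicate 1 and 84.1 CPM in replicate 2 (log2 ratio 0.61) and was called higher. Mir142b was at 0 in both libraries, but the reads opposite to it, 238 and 444, equal the own-strand counts of Mir142. The choroid plexus list, led by Mir204, Mir34c and Mir449a, had 6 of 8 tested genes higher and 1 lower, with a median log2 ratio of 0.98, sums of 1333 and 1811 CPM, and Mir449b at 0. The lower gene was Mir34c, with 2421 and 2005 counts (-0.55). Of the higher genes Mir429, Mir200b, Mir34b and Mir200a had low mean levels of 37.9, 36.6, 10.6 and 4.85 CPM. With the 100-count minimum 4 of 6 tested genes were higher and 1 lower, with a median of 0.86. Choroid plexus is a vascular tissue beside the hippocampus. The part of these cells in the difference of Mir126a was not tested.

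Genes of neurons and oligodendrocytes were described as well. With no other tissue in the series, they cannot test the tissue label. The neuron list, led by Mir132, Mir128-1 and Mir137, summed to 44639 and 50936 CPM, with 10 of 15 tested genes higher and 2 lower in replicate 2, beside 32.5% and 23.2% over all tested genes. Its median log2 ratio was 0.44, beside 0.05 over all tested genes. With the 100-count minimum 10 of 13 were higher and 2 lower, with a median of 0.31 beside -0.01. Of its 17 genes 13 had 10 or more counts in both libraries. Mir124a-3 was at 0, and all 3 Mir124a genes share 20 bases with 2 others. Mir128-1 shares 20 bases with 1 other gene, and more genes of the list share such stretches, so the list's sum is uncertain. The oligodendrocyte list, Mir219a-2, Mir338 and Mir219a-1, summed to 5819 and 5661 CPM. Mir219a-2 and Mir219a-1 each share 20 bases with 2 other genes, so this sum is uncertain too. Mir143 and Mir145a together stood at 6520.4 and 5898 CPM, and Mir126a alone at 9729 and 37937 CPM.

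**Figure D4:**
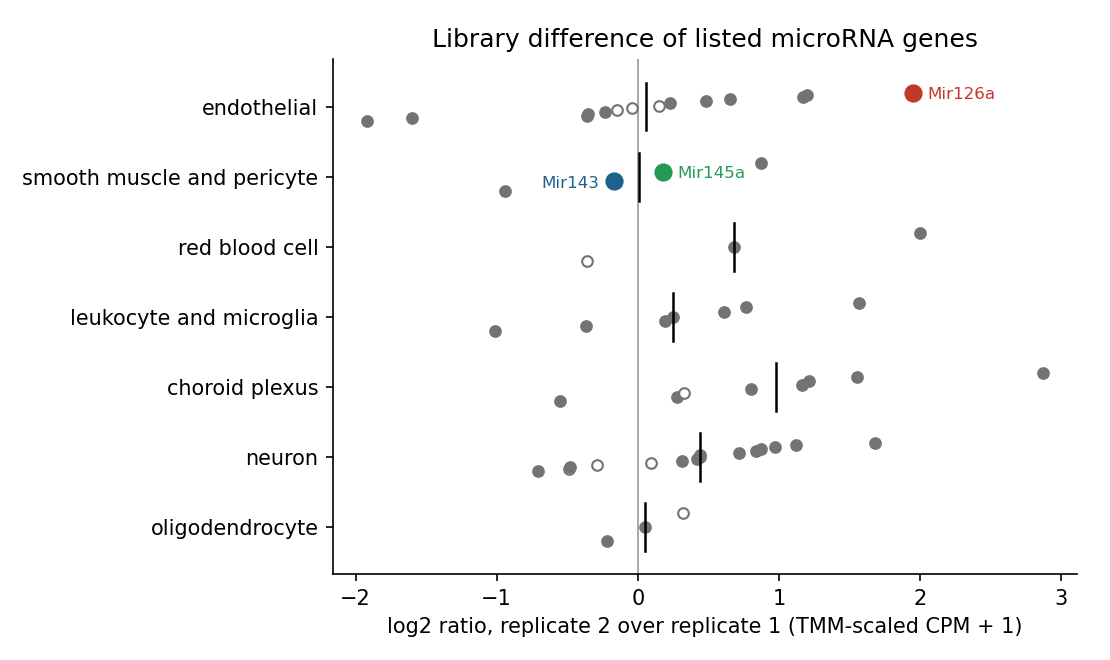
Log2 ratio of replicate 2 over replicate 1 for each tested gene of 7 lists, filled where the gene passed the exact binomial test and open where it did not, with the list's median as a black line. Mir126a, at 1.95, is the highest point of the endothelial list, whose other genes lie on both sides of 0, and Mir143 and Mir145a lie near 0.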

How the data were processed

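Small RNA libraries of 2 hippocampus samples in 1 group were analysed. The authors deposited raw counts per microRNA gene without normalization, mapped to mm10 and counted against GENCODE M21, per the labels and notes deposited with the counts. The aligner is not given in the sources used here. No header names the columns, whose meaning was read from the values. Lines that name no gene (64.7% and 65.4% of 12462653 and 15241166 reads) were left out, leaving 4404040 and 5279877 counts. All 2202 identifiers matched GENCODE M21. Mature arms cannot be separated, and whether CAST/EiJ alleles change mapping was not tested.

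Own-strand counts were scaled to CPM, per 1000000 counts. The library comparison was an exact binomial test of each gene's counts (two-sided, scipy 1.17.1), with the expected share from library sizes after TMM in edgeR 4.0.16 under R 4.3.3. Genes needed at least 10 counts over both libraries, and p-values were adjusted by Benjamini-Hochberg at 0.05. edgeR's quasi-likelihood test needs 2 groups. DESeq2 1.42.0 gave alternative size factors. The test was run on simulated counts with known changes and counting error only. Those counts had no added variation between libraries, while edgeR estimated a coefficient of variation of 0.425 here. The simulation therefore gives no error rate for these data. The alternatives were other columns, scalings, count minimums and pseudocounts, added variation and each library alone.

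The members, the 7 lists (67 of 68 symbols found, 2 by an older symbol) and the tests were chosen with earlier results of these data known. Named genes are the 3 genes, overlapping microRNA genes, the 3 next above and below each in level, the 5 with the nearest log2 ratio among genes with 1000 or more counts, genes sharing a seed, and the 3 highest of each list. Others named were chosen after their values were seen. These are Mir145b, Mir222, Mir214, Mir142, the further called genes of the endothelial list, the low genes of the choroid plexus list and the genes at 0.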

Additional observations from a re-analysis of the deposited data

How the results depend on the processing

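Most values kept their direction and side of the threshold under the alternatives. No leave-out fit of the library comparison was possible, since it needs both libraries. No paired analysis was possible because there is 1 group. The planned search of a genome for the mature arms was not run. With each library alone, the mean of Mir126a ranged from 9729 to 37937 CPM and its ratio to Mir143 from 1.54 to 6.71. The either-strand column, which by construction drops reads shared with Mir126b, gave 0.436 CPM for Mir126a and 6509 CPM for Mir143. They gave ratios of 6.01e-05 for Mir126a to Mir143 and 0.00160 for Mir126a to Mir145a, and log2 changes of those ratios between the libraries of 1.48 and 1.12 that did not pass Fisher's exact test. Per 1000000 of all reads, a larger denominator, Mir126a stood at 8290.1, Mir143 at 2095 and Mir145a at 78.7.

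The call of Mir145a (main log2 ratio 0.18) was lost in the exact binomial test with DESeq2 size factors (log2 ratio 0.13, adjusted p = 0.0652). It was also lost with a minimum of 100 counts (0.05, adjusted p = 0.477). By scaling alone these settings lowered each log2 ratio by 0.05 and 0.13. The 100-count minimum also changed the genes over which p-values were adjusted, and the part of that was not tested. With an added coefficient of variation of 0.1, 149 genes passed, 96 higher and 53 lower, and the calls of Mir143 (-0.17) and Mir145a (0.18) were lost. With 0.3, 14 passed, 13 higher and 1 lower, and that of Mir126a (1.95) was lost as well. With the value edgeR estimated, added after seeing the data, 3 passed, 2 higher and 1 lower, and none of the 3 genes did. That value came from these same libraries and counts the differences under test as variation, so this setting cannot decide on them. Leaving Mir126a out of the totals, also added then, changed no call of Mir143 or Mir145a. With 2 libraries, depth is not the limit for Mir126a and Mir143: the spread between libraries is.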
